A study of Mus musculus with 20 samples.

Results

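The 39 genes described here are the interferon response genes of mouse liver: the transcription factors, GTPases, antiviral proteins, RNA sensors and chemokines that cells switch on when interferon binds its receptors. They were taken by name from a list of interferon-induced genes, with earlier results of these data known. Every probe that carries one of these names was kept, which gave 63 of the 30146 probes and 39 of the 21450 genes in the count table. Liver RNA came from 20 male Balb-C mice aged 10 to 12 weeks, and each library is from a separate animal. The compound was Nafion byproduct 2 (PFESA-BP2), a perfluorinated ether sulfonic acid that arises when the polymer Nafion is made, given by mouth once a day for 7 days. There were 4 mice in each of 5 groups: control mice given vehicle only, and mice given 0.03, 0.3, 3 or 6 mg/kg per day. Deionized water is the vehicle in the protocols, while the titles of the control samples say DMSO, and which of these was given is not settled here. RNA was measured by TempO-Seq, in which a pair of short detector oligonucleotides anneals side by side on a target RNA, is ligated and is counted by sequencing. The values are CPM, counts in every 1000000 counts of a library after scaling between libraries. The probe with the highest mean count stands for its gene and is called its main probe.

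Interferons of the alpha and beta kind signal through the kinases Jak1 and Tyk2 to a complex that holds Stat2 and Irf9 and binds interferon-stimulated response elements in promoters. Interferon-gamma signals through Jak1 and Jak2 to promoters with gamma-activated sites and induces Irf1, itself a transcription factor for a second wave of targets. In liver, hepatocytes, Kupffer cells and endothelial cells all carry these receptors, and resting tissue keeps a low level of many of the target genes.

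The promoters of a few members show these elements, and they are given because the same genes carry the main contrast among the values that follow. RefSeq promoter windows, from 250 bases before to 50 after a gene's start on GRCm38.p6, were matched for 29 of the 39 members, with 36 windows in all. Elements of 2 kinds were searched on both strands: the interferon-stimulated response element, as GAAA, any 2 bases and GAAA again, and the gamma-activated site as TTCNNNGAA. The stretches below run 5′ to 3′ along each gene's strand, with the matched letters in capitals. They lie at chr11:53769894-53769962 (plus strand, Irf1), chr11:58199492-58199555 (plus, Igtp), chr11:58214883-58214952 (plus, Irgm2), chr11:48871421-48871474 (minus, Irgm1) and chr4:156200845-156200914 (minus, Isg15).
Irf1: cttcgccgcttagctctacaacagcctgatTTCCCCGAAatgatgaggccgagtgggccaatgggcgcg
Igtp: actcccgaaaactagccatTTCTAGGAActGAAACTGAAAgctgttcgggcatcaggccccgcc
Irgm2: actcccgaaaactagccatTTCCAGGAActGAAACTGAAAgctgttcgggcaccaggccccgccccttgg
Irgm1: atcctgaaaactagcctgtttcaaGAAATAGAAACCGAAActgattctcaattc
Isg15: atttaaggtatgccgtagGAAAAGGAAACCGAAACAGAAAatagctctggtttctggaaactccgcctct

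The Irf1 stretch holds a gamma-activated site alone. The Igtp and Irgm2 stretches hold a gamma-activated site followed by a response element, and 62 of their first 64 bases are identical (96.9%). The Irgm1 and Isg15 stretches hold overlapping response elements. Over the members, the response element occurred in 16 of 36 windows (44.4%), against 3.44% of all 32851 windows in the table, and the gamma-activated site in 10 of 36 (27.8%), against 8.3%. A match describes these letters and does not show a bound site.

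Many of these genes gave few counts in resting liver. The members took 0.0891% to 0.113% of the counts of a control library and 0.0619% to 0.0863% at 6 mg/kg, which holds the lowest of all 20 libraries. The libraries held between 6823518 and 10310931 counts, and 3 counts were worth 0.291 to 0.440 CPM. After the filter on low counts, 48 of the 63 probes and 31 of the 39 genes were tested. The genes with no tested probe were Gbp6, Gbp7, Mx1, Mx2, Ifi35, Oas2, Dhx58 and Cxcl9, whose probes reached at most 1.904 CPM (17 counts) in any library, and nothing is said of their change. Among the tested main probes the mean control level had a median of 11.7 CPM, with 15 genes under 10 CPM and 7 over 50 CPM. Probes differ in how well they are ligated, so levels are compared between groups and not between genes.

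Livers at 6 mg/kg had lower levels of interferon response genes than control livers. Irf1, the immunity-related GTPases Igtp, Irgm2 and Ifi47, the guanylate-binding proteins Gbp2 and Gbp3, and the RNA sensor Ifih1 were lower, with main-probe changes from -0.64 to -1.77 on the log2 scale. So were Ifit2, Ifi27, Ifi44, Isg15 and Stat2. In all, 16 of 48 member probes (33.3%) were lower and 0 were higher by edgeR's quasi-likelihood test at an adjusted p under 0.05. Over all 14122 tested probes 8.73% were lower and 11.6% higher. DESeq2 called 18 member probes lower and limma-voom 16, neither called one higher, and 2 member probes were higher at an unadjusted p under 0.05. The shares of all probes called by DESeq2 and limma-voom are not given here. Counted by main probe, 12 of 31 genes were lower (38.7%), against 9.64% of all genes. In 15 of the 48 probes (31.2%) every liver at 6 mg/kg lay below every control, against 13.6% of all probes. The median log2 fold change was -0.65 for the member probes and 0.01 for all probes. In bulk tissue, fewer cells of a type and less RNA per cell cannot be told apart.

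All livers of the 2 highest doses sat in row B of the assay plate, and all control livers and those at 0.03 mg/kg in row A. Row and dose cannot be told apart beyond what the 0.3 mg/kg group shows, which had 3 wells in row A and 1 in row B. With row as a covariate, estimated from that group alone, 3 of the 16 probes were called at 6 mg/kg and no other member probe was: Igtp at -1.96 (adjusted p = 0.0126), Irgm2 at -3.15 (adjusted p = 0.0393) and Ifi27 at -1.54 (adjusted p = 0.0264). The median of the member probes in that fit was -0.78. The row term rests on 1 liver in row B, the fourth at 0.3 mg/kg. That liver was the highest of its group in all 3 of these probes. Its Ifi27 level, for example, was 109.4 CPM, where the others had 57.2 to 74.57 CPM. What these 3 estimates owe to the row and to that single animal cannot be told apart. Without control replicate 1 the count of lower probes was 10. The share of all probes called in the row fit or without that control is not given here, so these counts have no background beside them.

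**Figure D1:**
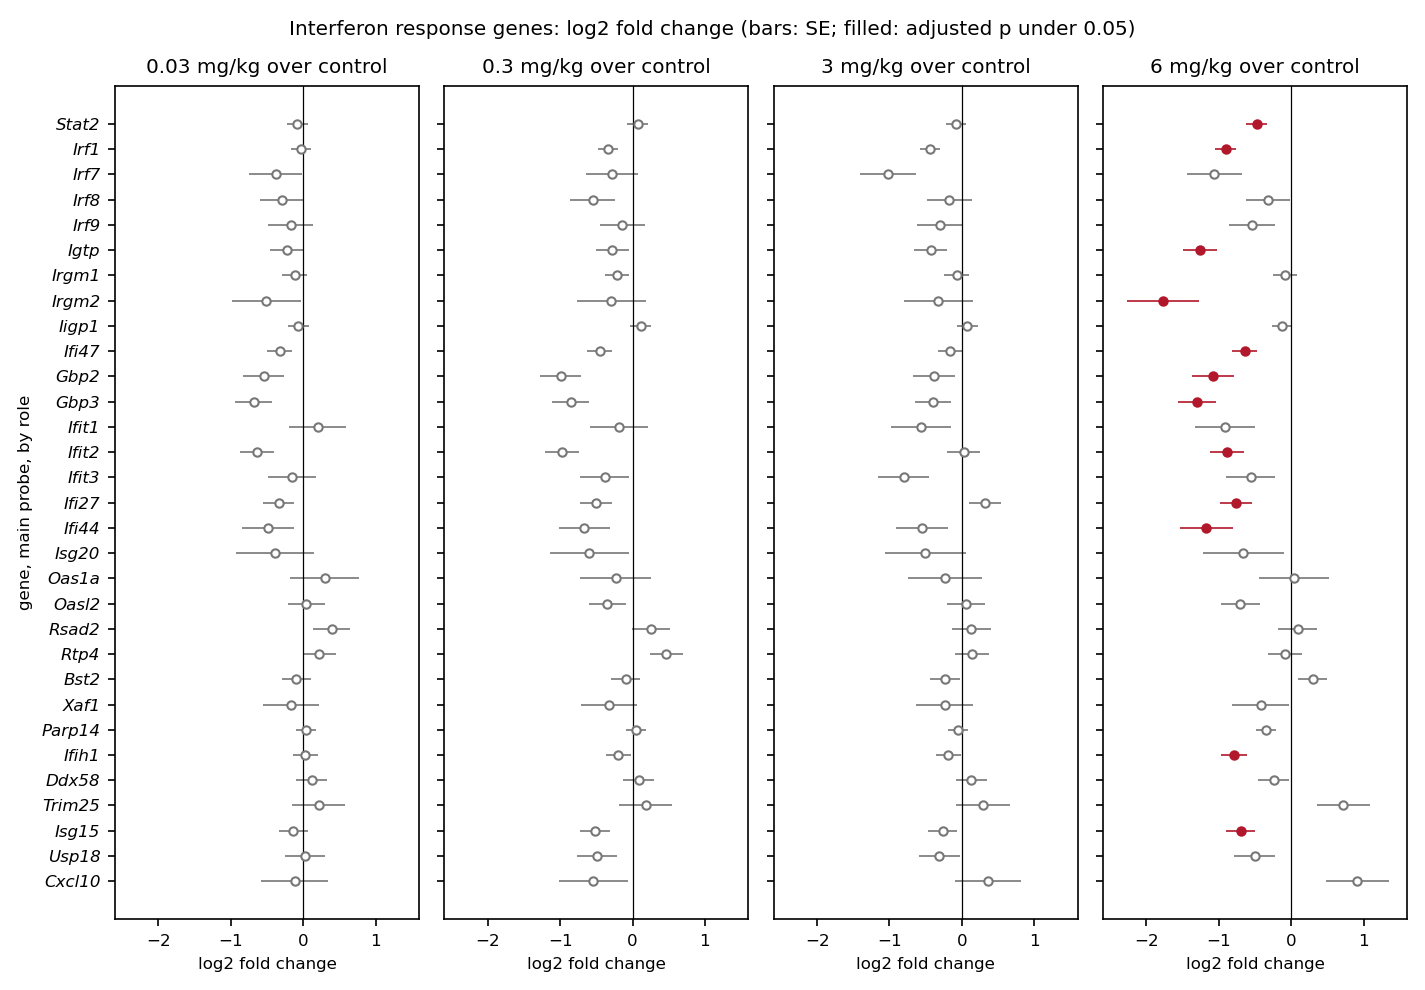
Log2 fold change over control of the main probe of each of 31 tested interferon response genes, in 1 panel per dose (x axis, log2 scale), with genes in order of role down the page. Points are fitted changes, bars their standard errors, and filled points have an adjusted p under 0.05. At 6 mg/kg 12 genes are filled, all on the lower side, and at the other doses none is.

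Among the transcription factors, 2 of 5 tested genes were lower at 6 mg/kg. Irf1, the gamma-induced factor, had 37.8, 34.4, 33.4 and 30.1 CPM in the 4 livers at 6 mg/kg and 62.6, 73.3, 64.5 and 53.8 CPM in the control livers. The groups did not overlap, and every liver at 6 mg/kg lay well under the lowest control. The log2 fold change was -0.91 (SE 0.14, adjusted p = 0.000119, edgeR). A second Irf1 probe fell further, with 7.80, 7.19, 6.86 and 4.502 CPM at 6 mg/kg and 15.2, 15.6, 16.5 and 18.4 CPM in controls, a change of -1.32 (SE 0.17, adjusted p = 1.61e-05, edgeR). With plate row as a covariate the main Irf1 probe was at -0.48 (adjusted p = 0.277).

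Stat2, the partner of Irf9 in the complex that reads the alpha and beta signal, had 15.8, 16.7, 15.7 and 18.2 CPM at 6 mg/kg and 25.8, 24.1, 22.8 and 19.9 CPM in controls. The groups did not overlap, with the highest liver at 6 mg/kg just under the lowest control. The change was -0.48 (SE 0.14, adjusted p = 0.0229, edgeR), the smallest among the 12 genes, and it lost its call without control replicate 1 (-0.41, adjusted p = 0.0873), control replicate 2 (-0.46, 0.0548) or the third liver at 6 mg/kg (-0.43, 0.072). Irf9, the DNA-binding part of that complex, had 2.88, 2.80, 1.89 and 2.10 CPM at 6 mg/kg and 5.12, 3.24, 3.56 and 2.08 CPM in controls. Those groups overlapped, and the change of -0.54 (SE 0.32) did not pass (adjusted p = 0.24, edgeR).

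Irf7, the factor that amplifies interferon-alpha production, had 5.76, 5.60, 3.19 and 2.80 CPM at 6 mg/kg and 11.2, 11.4, 7.22 and 6.36 CPM in controls. All livers at 6 mg/kg lay below all controls, but controls themselves split into a higher and a lower pair. The change was -1.06 (SE 0.38) with an adjusted p of 0.0523 in edgeR. DESeq2 called it (-1.06, adjusted p = 0.031), as did edgeR without the first liver at 6 mg/kg (-1.23, adjusted p = 0.0448). In all it was called in 4 of the 19 other settings tried, with changes from -1.23 to -0.65. The second Irf7 probe was at -0.38 (SE 0.22, adjusted p = 0.24, edgeR), with overlapping groups. At 3 mg/kg that probe was at 0.17 and the main probe at -1.02, neither of them called. Irf8, a factor of macrophages and dendritic cells, was at -0.32 (SE 0.31, adjusted p = 0.478, edgeR).

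The GTPases held the largest changes. They act on the membranes around intracellular pathogens, and 5 of the 7 with a tested probe were lower at 6 mg/kg. Igtp, also called Irgm3, had 72.4, 49.3, 41.9 and 44.7 CPM at 6 mg/kg and 139.5, 143, 110.4 and 105 CPM in controls. The groups did not overlap, and the first liver at 6 mg/kg stood above the other 3. The change was -1.26 (SE 0.23, adjusted p = 0.000692, edgeR), and it passed in each of the 19 other settings tried. Plate row as a covariate was 1 of these settings, and its row term rests on 1 liver, as said above. Irgm2 had 33.0, 28.1, 27.6 and 18.8 CPM at 6 mg/kg and 105.5, 84.0, 84.3 and 93.1 CPM in controls. Here too the groups did not overlap. The change was -1.77 (SE 0.50, adjusted p = 0.0169, edgeR), and without the fourth liver at 6 mg/kg it was -1.65 (adjusted p = 0.0595).

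Irgm1, the third of these regulatory GTPases, which guard host membranes against the effector GTPases, was not called. It had 103, 97.3, 91.7 and 88.7 CPM at 6 mg/kg and 128, 100.6, 91.8 and 84.7 CPM in controls, and every liver at 6 mg/kg lay within the range of the controls. The change was -0.09 (SE 0.17, adjusted p = 0.733, edgeR). Within a liver, the Irgm2 level divided by the Irgm1 level was 0.212 to 0.322 at 6 mg/kg and 0.825 to 1.10 in controls. The Igtp to Irgm1 ratio was 0.457 to 0.705 at 6 mg/kg and 1.09 to 1.42 in controls. At 0.03, 0.3 and 3 mg/kg the Irgm2 ratio was 0.452 to 0.934, 0.558 to 1.34 and 0.175 to 1.18. Its 0.175, in the fourth liver at 3 mg/kg, was below every liver at 6 mg/kg. The Igtp ratio was 1.02 to 1.31, 1.05 to 1.39 and 0.759 to 1.09 at those doses. These ratios were chosen after the values were seen and are a description with no test. In the GENCODE M21 annotation Irgm2 (chr11:58199618-58222782) overlaps Igtp (chr11:58199556-58207591) on the same strand, and Irgm1 lies apart at chr11:48861968-48871683. The RefSeq promoter window of Irgm2 (chr11:58214727-58215026), used for the stretch above, lies past the end of Igtp. The 2 annotations thus place the start of Irgm2 differently, and the RefSeq start lies outside Igtp. Probe positions were not used, so it was not tested whether the Igtp and Irgm2 probes share signal.

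**Figure D2:**
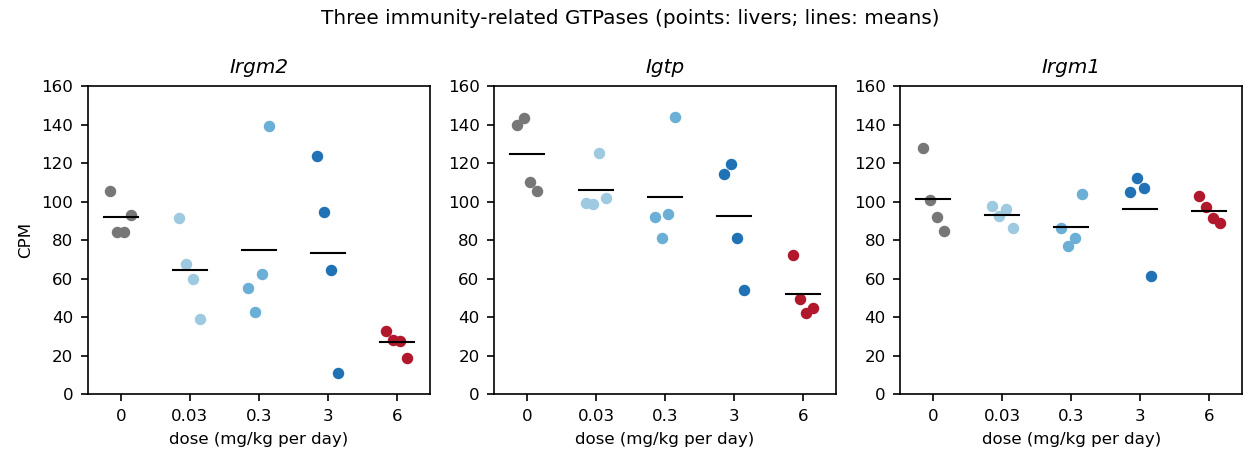
CPM of the main probes of Irgm2, Igtp and Irgm1 (y axis) by dose in mg/kg per day (x axis, equal steps), with 1 point per liver and a line at the mean of 4. Irgm2 and Igtp at 6 mg/kg lie below all controls, while Irgm1 at 6 mg/kg (88.7 to 103 CPM) lies among them, and 1 liver at 3 mg/kg has 10.8 CPM of Irgm2.

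Ifi47, another immunity-related GTPase, had 16.4, 13.9, 11.7 and 13.6 CPM at 6 mg/kg and 22.1, 25.8, 18.3 and 20.6 CPM in controls, with no overlap. The change was -0.64 (SE 0.17, adjusted p = 0.0128, edgeR). Scaling by library totals alone left it at -0.50 (adjusted p = 0.0769), and leaving out the third liver at 6 mg/kg at -0.54 (adjusted p = 0.0509). Its second probe was lower as well, at -1.10 (SE 0.32, adjusted p = 0.0193, edgeR), with overlapping groups. Iigp1, an effector GTPase that coats parasite vacuoles, gave discordant probes. Its main probe had 157, 130.3, 139 and 97.8 CPM at 6 mg/kg and 158, 142, 123 and 149.6 CPM in controls, a change of -0.13 (SE 0.14, adjusted p = 0.557, edgeR). Its other probe had 14.5, 18.1, 14.3 and 34.6 CPM at 6 mg/kg and 47.5, 45.5, 27.5 and 39.7 CPM in controls, a change of -0.97 that did not pass (SE 0.53, adjusted p = 0.204, edgeR). In the fourth liver at 3 mg/kg that probe had 0.763 CPM while the main probe had 138 CPM.

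The guanylate-binding proteins, which form coats that break open pathogen compartments, were lower in both tested genes. Gbp3 had 9.97, 6.21, 6.27 and 3.60 CPM at 6 mg/kg and 20.3, 21.5, 12.3 and 10.1 CPM in controls. The highest liver at 6 mg/kg only just missed the lowest control, and the controls were again a higher and a lower pair. The change was -1.31 (SE 0.26, adjusted p = 0.00139, edgeR), and a second Gbp3 probe was at -1.54 (SE 0.31, adjusted p = 0.0014, edgeR). Gbp2 had 7.32, 5.36, 4.85 and 5.90 CPM at 6 mg/kg and 16.4, 15.1, 8.63 and 9.74 CPM in controls, with no overlap. The change was -1.08 (SE 0.29, adjusted p = 0.0119, edgeR). Members of this family, and of the Ifit and Oas families, are close in sequence, and whether their probes share signal was not tested.

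**Figure D3:**
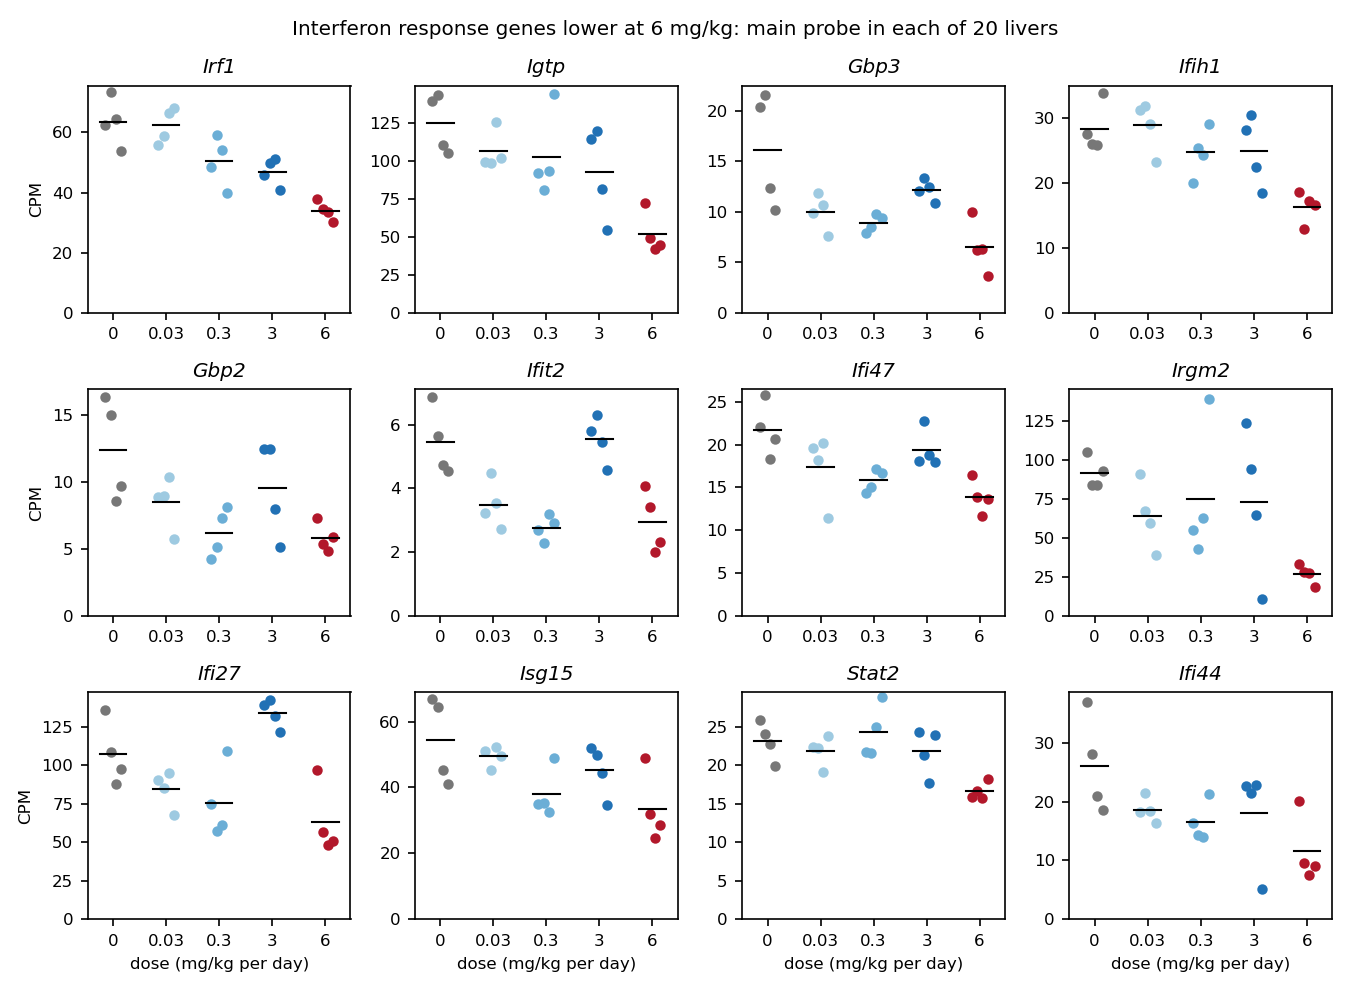
CPM of the main probe (y axis, a scale per gene from 0) of the 12 interferon response genes that were lower at 6 mg/kg, by dose in mg/kg per day (x axis, equal steps). Points are livers and lines the means of 4. Irf1 is at 30.1 to 37.8 CPM at 6 mg/kg and 53.8 to 73.3 CPM in controls, whereas Ifi27 reaches its highest levels at 3 mg/kg.

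Of the Ifit and Ifi genes, whose Ifit members bind foreign RNA, 3 of the 5 tested were lower by their main probe. Ifit2 had 4.08, 3.41, 2.01 and 2.30 CPM at 6 mg/kg and 6.86, 5.63, 4.74 and 4.54 CPM in controls. The groups did not overlap, although these are low levels, and the change was -0.88 (SE 0.24, adjusted p = 0.0122, edgeR). Without control replicate 1 it was -0.74 (adjusted p = 0.053). Ifit1 had 7.20, 7.31, 3.79 and 1.601 CPM at 6 mg/kg and 10.2, 10.6, 10.6 and 5.97 CPM in controls, and the fourth control lay below 2 of the livers at 6 mg/kg. The change of -0.92 (SE 0.41) did not pass (adjusted p = 0.119, edgeR). Ifit3 had a main probe at -0.56 (SE 0.34, adjusted p = 0.251, edgeR) and a weaker probe that was lower, at -1.57 (SE 0.36, adjusted p = 0.00433, edgeR).

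Ifi27, a small interferon-induced membrane protein, had 96.8, 56.8, 48.0 and 50.7 CPM at 6 mg/kg and 136, 108.5, 87.9 and 97.1 CPM in controls. The groups overlapped through the first liver at 6 mg/kg, which lay above the lowest control. The change was -0.77 (SE 0.22, adjusted p = 0.0174, edgeR), and it was -0.62 (adjusted p = 0.073) without control replicate 1 and -0.64 (adjusted p = 0.0656) without the third liver at 6 mg/kg. Ifi44, an interferon-induced cytosolic protein, had 20.2, 9.62, 7.57 and 9.10 CPM at 6 mg/kg and 37.1, 28.1, 20.9 and 18.6 CPM in controls. Again the first liver at 6 mg/kg reached into the controls while the other 3 lay well below them. The change was -1.17 (SE 0.36, adjusted p = 0.028, edgeR). Ifi44 lost its call without control replicate 1 (-0.95, adjusted p = 0.0943) or 2 (-1.14, 0.0586), and without the second (-1.10, 0.0709), the third (-0.99, 0.0828) or the fourth (-1.09, 0.0797) liver at 6 mg/kg.

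The antiviral effectors gave no call. Of 8 tested genes 0 passed in either direction by main probe, with 2 lower and 0 higher at an unadjusted p under 0.05 in edgeR, and the median change was -0.22. Parp14, an ADP-ribosyltransferase, was at -0.35 (SE 0.14, adjusted p = 0.0722, edgeR) with no overlap between groups. Oasl2, a relative of the oligoadenylate synthetases, was at -0.70 (SE 0.26, adjusted p = 0.0642, edgeR). Rsad2, known as viperin, was at 0.09 and Rtp4 at -0.09. Bst2, known as tetherin, which holds budding virus at the cell surface, was above its control level in both probes without passing at 6 mg/kg, at 0.30 (SE 0.20, adjusted p = 0.296, edgeR) and 0.89 (SE 0.35, adjusted p = 0.0752, edgeR). By the second Bst2 probe the fourth liver at 6 mg/kg had 25.9 CPM and the others 7.10 to 13.45 CPM. Xaf1, Isg20 and Oas1a ranged from -0.66 to 0.04.

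Of the RNA sensors, 1 of 3 tested genes was lower. Ifih1, which encodes MDA5, had 18.6, 12.9, 17.3 and 16.6 CPM at 6 mg/kg and 27.6, 26.0, 25.9 and 33.9 CPM in controls. No liver at 6 mg/kg reached the lowest control, and the change was -0.79 (SE 0.18, adjusted p = 0.00317, edgeR). Ddx58, which encodes the sister sensor RIG-I, was at -0.24 by its main probe (SE 0.21, adjusted p = 0.449, edgeR) and at 0.02 by its other. Trim25, a ubiquitin ligase that acts on RIG-I, was at 0.72 (SE 0.36, adjusted p = 0.158, edgeR).

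Isg15, an interferon-induced, ubiquitin-like protein that is attached to other proteins, had 48.9, 31.9, 24.7 and 28.5 CPM at 6 mg/kg and 66.8, 64.3, 45.4 and 41.2 CPM in controls. The first liver at 6 mg/kg lay among the controls and the other 3 below them. The change was -0.70 (SE 0.21, adjusted p = 0.0202, edgeR), and it missed the threshold without control replicate 1 (-0.58, adjusted p = 0.0772), control replicate 2 (-0.61, 0.0652) or the third liver at 6 mg/kg (-0.56, 0.0759). Usp18, which removes Isg15 and dampens the interferon receptor, had 7.56, 3.17, 4.26 and 6.80 CPM at 6 mg/kg and 10.1, 10.98, 3.88 and 6.23 CPM in controls. The groups overlapped, and the change was -0.50 (SE 0.28, adjusted p = 0.205, edgeR). Cxcl10, a chemokine that draws T cells, was close to the floor, with 1.56, 1.22, 1.06 and 4.10 CPM at 6 mg/kg and 0.874, 1.41, 0.970 and 1.04 CPM in controls. Its change of 0.91 (SE 0.43) did not pass (adjusted p = 0.139, edgeR) and was 0.24 without the fourth liver at 6 mg/kg.

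Genes with several probes allow a check inside the assay. Of the 15 genes with more than 1 tested probe, 14 had all probes on the same side of 0 at 6 mg/kg, Ddx58 being the exception. In 8 of the 15 at least 1 probe was lower, and in 2, Irf1 and Ifi47, every tested probe was. Gbp2, Ifit2, Ifi27 and Ifi44 were called by their main probe alone, with the other probe at -1.08, -0.61, -0.19 and -0.38.

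**Figure D4:**
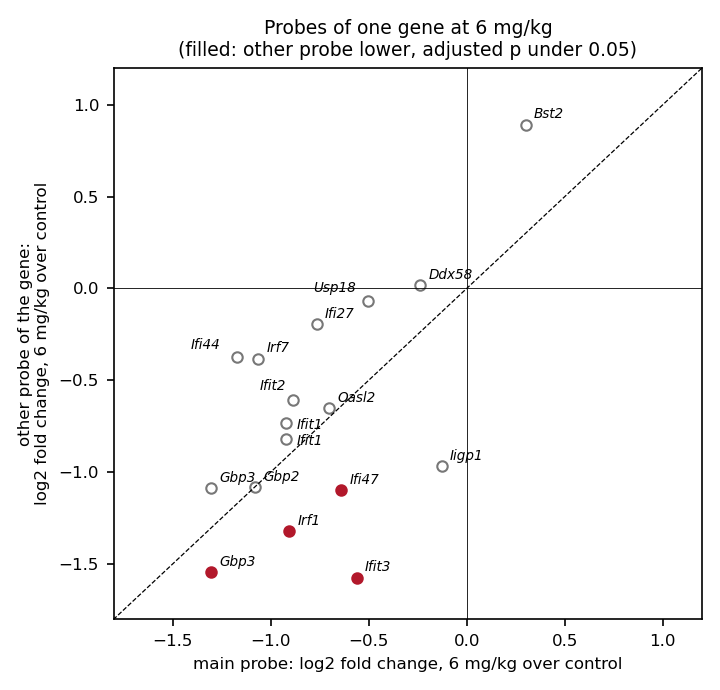
Log2 fold change at 6 mg/kg over control of the other tested probes of a gene (y axis) against that of its main probe (x axis), for the 15 genes with more than 1 tested probe. The dashed line marks equal change, and filled points are other probes with an adjusted p under 0.05. Points lie in the lower left except Bst2, above 0 by both probes with neither called, and Ddx58, while Iigp1 and Ifit3 lie far from the line.

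The genes were also sorted by the interferon that is best known to induce them, although many respond to both. Of 10 tested genes in the interferon-gamma group (Irf1, Irf8, the GTPases and Cxcl10), 6 were lower at 6 mg/kg and the median change was -0.77. Of the 21 genes in the alpha and beta group, 6 were lower and the median change was -0.54. Whether the groups differed was not tested. In single livers, the median of the interferon-gamma group relative to the control mean, on the log2(CPM + 1) scale, lay between -0.864 and -0.472 at 6 mg/kg, and that of the alpha and beta group between -0.647 and -0.124. The first liver at 6 mg/kg was the highest of its group in both. Controls lay between -0.228 and 0.218 for the interferon-gamma group. They lay between -0.269 and 0.321 for the alpha and beta group, with the first liver at 6 mg/kg among them. The lowest livers at 0.03, 0.3 and 3 mg/kg had interferon-gamma medians of -0.569, -0.557 and -0.537, below that of the first liver at 6 mg/kg.

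**Figure D5:**
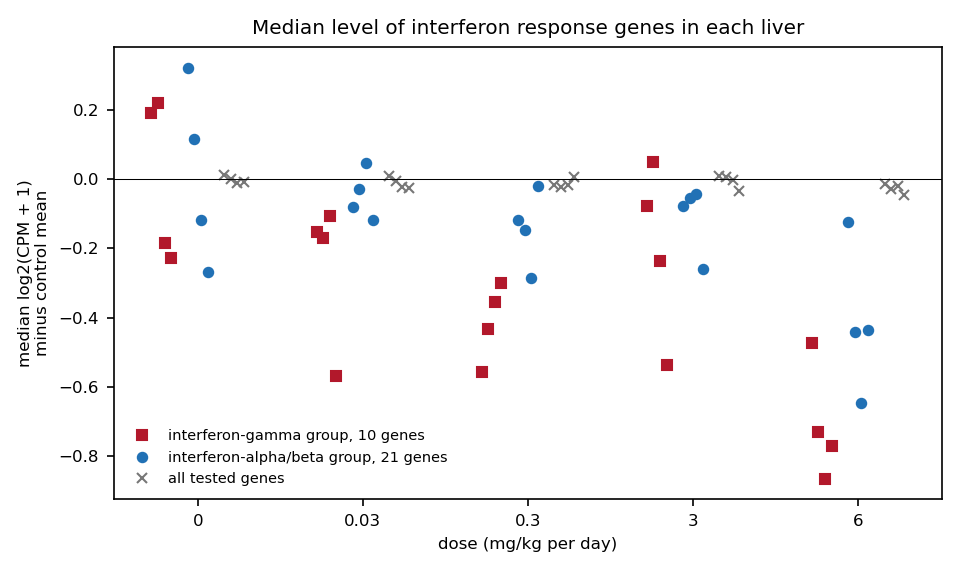
Median over genes of log2(CPM + 1) minus the control mean (y axis) in each of 20 livers, by dose in mg/kg per day (x axis, equal steps), for the interferon-gamma group, the alpha and beta group and all tested genes. The interferon-gamma group lies between -0.864 and -0.472 at 6 mg/kg and between -0.228 and 0.218 in controls. It reaches down to -0.569, -0.557 and -0.537 at 0.03, 0.3 and 3 mg/kg. The medians of all tested genes stay near 0 at every dose.

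The promoter letters occurred in lower and in uncalled members alike. The response element was found in 7 of 11 lower genes with a window and in 8 of 15 genes that were tested and not called. The gamma-activated site was found in 4 of 11 and 4 of 15. Irgm1, which was not called, carries overlapping response elements as printed above.

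At 3 mg/kg no interferon response gene passed against control. In edgeR 0 of 48 member probes were called, where 0.382% of all probes were lower and 1.11% higher. DESeq2 and limma-voom also called 0, and at an unadjusted p under 0.05 edgeR had 5 lower (10.4%, against 5.45% of all probes) and 0 higher. The median change was -0.25. Irf1 had 45.9, 49.9, 51.1 and 40.9 CPM at 3 mg/kg, all below the controls, with a change of -0.44 (SE 0.14, adjusted p = 0.153, edgeR). In all, 3 of 48 probes lay below the controls with no overlap, and 4.62% of all probes did so. The fourth liver at 3 mg/kg was low in several members. It had 10.8 CPM of Irgm2 where the other 3 had 64.6 to 124 CPM, and 5.15 CPM of Ifi44 where the others had 21.5 to 22.8 CPM. Without it the Irgm2 change at 3 mg/kg was 0.05 in place of -0.32. That library stood apart over the probes of all genes, not in the members alone. Its chi-square over degrees of freedom against the others of its group was 115 to 146, and 11.7 to 55.05 among those others. The fourth library at 6 mg/kg also stood apart, at 97.3 to 108.6, against 4.03 to 15.9 among the others there.

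At 0.3 mg/kg no probe of any gene passed in edgeR, so the background is 0%. Among the members, 10 of 48 were lower and 0 higher at an unadjusted p under 0.05, which is 20.8% against 4.24% of all probes lower. The median change was -0.29, and 6 probes lay below the controls with no overlap, against 3.38% of all probes. These were the second Irf1 probe, Ifi47, Gbp2, both stronger Gbp3 probes and Ifit2. Ifit2 had 2.68, 2.28, 3.18 and 2.91 CPM at 0.3 mg/kg, all under the lowest control, with a change of -0.97 (SE 0.24, adjusted p = 0.382, edgeR). DESeq2 called 1 member probe, the second of Irf1, at -0.74 with an adjusted p of 0.0204, and limma-voom called 0. The fourth liver at 0.3 mg/kg, the one from plate row B, was above the other 3 in several members: Igtp was 144 CPM there and 80.9 to 93.6 CPM in the others, and Irgm2 was 139 CPM there and 42.8 to 62.6 CPM in the others. The part of the row in this was not tested.

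At 0.03 mg/kg no probe of any gene passed either, again a background of 0%. Of the member probes 3 were lower (6.25%, against 1.62% of all probes) and 0 higher at an unadjusted p under 0.05 in edgeR, DESeq2 and limma-voom called 0, and the median change was -0.11. Ifit2 and a minor Oasl2 probe lay below the controls with no overlap, and a minor Irf7 probe lay above them. Over all probes 1.49% lay below and 2.01% above.

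The livers at 6 mg/kg were then compared with those at 3 mg/kg, which came from the same plate row. Irf1, Igtp, Gbp3, Ifit2, Ifi27 and Ifih1 were lower by their main probes, 6 of 31 genes against 3.19% of all genes. By probe, 8 of 48 were lower and 0 higher in edgeR, against 2.77% of all probes lower and 3.96% higher, with 1 higher at an unadjusted p under 0.05. DESeq2 called 10 lower and 0 higher, limma-voom 7 and 0, and the shares of all probes under those tools are not given here. In 10 of 48 probes every liver at 6 mg/kg lay below every liver at 3 mg/kg, against 5.2% of all probes. Ifi27 had the largest of these changes among main probes, with 96.8, 56.8, 48.0 and 50.7 CPM at 6 mg/kg and 139, 142, 132 and 121 CPM at 3 mg/kg. The groups did not overlap, and the change was -1.08 (SE 0.22, adjusted p = 0.00677, edgeR). The weaker second probe of Ifi27 went the other way without passing, at 0.48 (SE 0.35, adjusted p = 0.431, edgeR). Ifit2 had 4.08, 3.41, 2.01 and 2.30 CPM at 6 mg/kg and 5.81, 6.31, 5.45 and 4.58 CPM at 3 mg/kg, with a change of -0.91 (SE 0.24, adjusted p = 0.0267, edgeR). Its second probe was at -0.20 with overlapping groups (SE 0.38, adjusted p = 0.806, edgeR). Irf1 was at -0.47 (SE 0.14, adjusted p = 0.0481, edgeR) and -0.95 in its second probe (SE 0.17, adjusted p = 0.00331, edgeR).

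That count moved with single libraries. It was 2 without the first or the second liver at 3 mg/kg or without the third or the fourth at 6 mg/kg, and 4 without the second at 6 mg/kg. Without the fourth liver at 3 mg/kg it was 13, with 1 probe higher, and fitted on the 8 libraries alone it was 0.

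Ifi27 and Ifit2 did not follow dose step by step. Ifi27 had medians of 102.8, 87.9, 67.7, 135 and 53.7 CPM at 0, 0.03, 0.3, 3 and 6 mg/kg, so that the 3 mg/kg livers were the highest. In a comparison added after the values were seen, 3 against 0.3 mg/kg, Ifi27 was higher at 3 mg/kg by 0.82 (SE 0.22, adjusted p = 0.0459, edgeR) and Ifit2 by 0.99 (SE 0.24, adjusted p = 0.0259, edgeR). They were the only member probes called there, 2 of 48, where 1.86% of all probes were higher and 0.977% lower. The second probe of each went the other way without passing, at -0.44 for Ifi27 and -0.21 for Ifit2. The main Irf1 probe had medians of 63.6, 62.7, 51.2, 47.9 and 33.9 CPM over the same doses. Its second probe had 16.1, 15.3, 10.05, 13.0 and 7.02 CPM, which was not lower at each step, and its change at 3 against 0.3 mg/kg was 0.36 (adjusted p = 0.242, edgeR).

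A slope over the rank of the dose was lower for 13 of 48 member probes and higher for 1, against 6.72% and 11.3% of all probes. Irf1 had the smallest p, with a slope of -0.22 per dose step (SE 0.03, adjusted p = 6.74e-05, edgeR), followed by its second probe at -0.29 (SE 0.05, adjusted p = 0.000459, edgeR) and Igtp at -0.26 (SE 0.06, adjusted p = 0.0029, edgeR). The 1 rising probe was the second of Bst2, at 0.22 (SE 0.08, adjusted p = 0.0493, edgeR). It was highest in the fourth livers of the 2 top doses, with 25.9 CPM at 6 mg/kg (others 7.10 to 13.45) and 16.0 CPM at 3 mg/kg (others 6.87 to 7.155). The count of falling probes was 6 without control replicate 1 or 2, and 7, 5 and 8 without the second, the third and the fourth liver at 6 mg/kg. With plate row as a covariate 8 probes fell, of which 4 were among those called without it.

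Genes of the pathway outside the 39 were examined at 6 mg/kg, where 973 of all 10097 tested genes were lower and 1099 higher (1780 and 1781 at an unadjusted p under 0.05). None of 21 interferon genes with a probe had enough counts to test, and their summed level was 0.200 to 3.96 CPM at 6 mg/kg (median 3.48) and 1.498 to 17.9 CPM in controls (median 1.69), where 1 library gave the 17.9 CPM. Of 12 tested receptors, kinases and regulators, 3 were lower, among them the kinases Jak1 and Jak2, and 0 were higher. Jak1 was at -0.41 (SE 0.13, adjusted p = 0.0298, edgeR) and Jak2 at -0.45 (SE 0.15, adjusted p = 0.0411, edgeR). The receptor chain Ifnar1 was at -0.62 (adjusted p = 0.0655, edgeR) and Ifngr1 at 0.46 (adjusted p = 0.261, edgeR). Of 50 other interferon-induced genes with a tested probe, 18 were lower and 0 higher, with 26 lower and 1 higher at an unadjusted p under 0.05. Their median change was -0.50. Herc6, a ligase for Isg15 in mice, was at -0.78 (SE 0.15, adjusted p = 0.00105, edgeR). Of 12 tested genes of nucleic acid sensing, 1 was lower and 1 higher: the endosomal receptor Tlr7 was at -0.75 and the kinase Ikbke at 1.09 (SE 0.23, adjusted p = 0.00241, edgeR).

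Markers of the liver's cell types were counted at 6 mg/kg in the same way, to be read against the 9.64% of all genes that were lower. Of 15 tested Kupffer cell markers 3 were lower and 0 higher. Among these C1qb, a complement subunit made by macrophages, was at 19.8 to 38.5 CPM at 6 mg/kg and 44.5 to 73.5 CPM in controls, while Clec4f was at -0.54 (adjusted p = 0.446, edgeR). The median change of the 15 was -0.45, and 14 were below 0. The summed Kupffer markers were at 237 to 423 CPM at 6 mg/kg and 313 to 415 CPM in controls, but this sum held Mpeg1, at 90.0 to 282 CPM at 6 mg/kg and 81.6 to 117 CPM in controls (0.56, adjusted p = 0.203, edgeR). Of 6 tested lymphocyte and natural killer cell markers 2 were lower, and the summed level was 10.3 to 18.5 CPM at 6 mg/kg and 14.3 to 28.9 CPM in controls, with the natural killer marker Klrb1c at 0 in every library. Of 4 tested monocyte and dendritic cell markers 1 was lower, the sum being 7.22 to 11.8 CPM at 6 mg/kg and 8.84 to 12.7 CPM in controls.

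Of 12 tested stellate cell markers 6 were lower and 1 higher, with a summed level of 175 to 233 CPM at 6 mg/kg and 319.9 to 368 CPM in controls. Of 18 hepatocyte markers 7 were lower and 1 higher, with a sum of 31930 to 42670 CPM at 6 mg/kg and 53700 to 63340 CPM in controls. The median change of the 18 was -0.245, and 15 were below 0. That sum is weighted to abundant genes such as Alb, at up to 11540 CPM in a library, while Tat reached at most 9.665 CPM. Of 15 endothelial markers 0 were lower and 1 higher, with none lower and 3 higher at an unadjusted p under 0.05 in edgeR, and a sum of 346 to 421 CPM at 6 mg/kg and 328 to 404 CPM in controls. The neutrophil marker S100a8 was higher, at 32.9 to 57.6 CPM at 6 mg/kg and 0.863 to 3.12 CPM in controls. It was the only call among 3 tested neutrophil markers, and it averaged 46.9 CPM of a list sum that averaged 49.4 CPM at 6 mg/kg, against 1.53 of 5.73 CPM in controls. The other 2 tested markers were at -1.06 (Ly6g, adjusted p = 0.104, edgeR) and -0.08 (Retnlg, adjusted p = 0.938, edgeR). The part of these markers in the interferon result was not tested.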

How the data were processed

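The authors deposited raw counts per TempO-Seq probe, 1 column per mouse, and the values show no normalization. The submitters' processing notes name the aligner Bowtie and the build GRCm38.p5. Bowtie's version and the settings for counting are not given in the sources used, and probe sequences were not used here. From these counts, probes were filtered with filterByExpr, scaled by trimmed mean of M values (TMM) factors and fitted in edgeR 4.0.16 (R 4.3.3) with the robust quasi-likelihood test on all 20 libraries and 1 mean per group. Benjamini-Hochberg adjustment ran over the 14122 tested probes, with 0.05 as the threshold. Fold changes are log2 with their standard errors (SE), and CPM use TMM-scaled library sizes. Floors cover counting error only.

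Mice within a group are named by accession order, since their labels hold no replicate number. No copied library was found among 30 pairs within groups (lowest chi-square over degrees of freedom 4.03). The fitting code was tested on simulated counts. In them edgeR called 4.76% of 63 probes changed 1.5-fold, 42.2% of 64 changed 2-fold and 81.5% of 65 changed 4-fold. A probe without a call is thus not shown to be unchanged. Alternatives were other scalings and filters, DESeq2 1.42.0, limma-voom (limma 3.58.1), the same test without robust spread, counts summed over the probes of a gene, 2 groups alone, plate row as a covariate, a 1.5-fold minimum, and libraries left out. Per-library values are given for members with a called main probe and for 8 listed genes whatever their values, and for Irgm1 and Iigp1, which were chosen after their values were seen. The members, lists and rules were chosen with earlier results of these data known. Gene coordinates are from GENCODE M21 and promoters from RefSeq (GRCm38.p6). Some results are not reported here.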

Additional observations from a re-analysis of the deposited data

Results flagged for a closer look

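A named member, or the median over members, in the 4 livers of a dose group made 1 set of values. Among 90 such sets, 8 held a liver far from the other 3, and chance gives about 1 in 20. The sets share the same 20 livers and are not independent. Several concern livers already described. Ifi44 was 5.15 CPM in the fourth liver at 3 mg/kg, where the others had 21.5 to 22.8 CPM, and 20.2 CPM in the first liver at 6 mg/kg, where the others had 7.57 to 9.62 CPM. Isg15 was 49.1 CPM in the fourth liver at 0.3 mg/kg, where the others had 32.5 to 35.3 CPM. Cxcl10 was 4.10 CPM in the fourth liver at 6 mg/kg, where the others had 1.06 to 1.56 CPM. Igtp was 125 CPM in the third liver at 0.03 mg/kg, where the others had 98.5 to 101.8 CPM, and Ifi47 was 22.8 CPM in the second at 3 mg/kg, where the others had 17.9 to 18.7 CPM. Usp18 was 6.62 CPM in the fourth liver at 0.03 mg/kg, where the others had 8.20 to 8.36 CPM. Ifit1 was 5.97 CPM in the fourth control, where the others had 10.2 to 10.6 CPM.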

How the results depend on the processing

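The count of lower member probes at 6 mg/kg against control was 16, and 3 with plate row as a covariate. Leaving out 1 library gave 10 to 19. Without both libraries that stood apart (the fourth at 3 and at 6 mg/kg) it was 22, and all 16 were among them. For 6 against 3 mg/kg the count of 8 became 3 with library totals alone, 5 with no filter, 0 with 2 groups alone and 13 without those 2 libraries, and leaving out 1 library gave 2 to 13. The count of falling slopes was 13, and 8 with no filter, with a mean of at least 5 CPM, with probes summed per symbol and with plate row (where 4 of the 8 were among the 13), and leaving out 1 library gave 5 to 15. At 0.3 mg/kg DESeq2 called 1 where edgeR called 0. The cause was not tested, except that fewer libraries or probes entered where some were left out. Shares of all probes called are given for the main edgeR fit alone, so counts under other settings have no background beside them.

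Over 320 settings of the named members at 6 mg/kg none changed sign, 30 lost a call and 4 gained one, all of these for Irf7. Signs changed at 3 mg/kg, where none was called. Ifit2, at 0.02, became -0.074 with plate row, and -0.052 to 0.18 with 1 library left out (below 0 without control replicate 3 or 4 or the second liver at 3 mg/kg). Ifi27, at 0.32, became -0.45 with plate row. Irgm2, at -0.32, became 0.042 without both libraries that stood apart and -0.69 to 0.046 with 1 left out (above 0 without the fourth liver at 3 mg/kg). Stat2, at -0.08, became -0.13 to 0.038 with 1 left out (above 0 without control replicate 1 or the third liver at 3 mg/kg). Scaling by library totals alone moved the median of all probes at 6 mg/kg to 0.15, from 0.01 under TMM. No paired analysis was run, since each library is from a separate mouse and the labels name no pairs between groups.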
